A study of Mus musculus with 188 samples.

Results

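A set of 1484 bins of 50 kb had replicated in a larger share of diploid than of haploid mid-S-phase mouse embryonic stem cells (mESCs), by 30 percentage points or more. They were chosen by that difference from the 46743 autosomal bins with a binarized state, and made up 3.17% of them, or 74.2 Mb. Mid S phase here means cells with 40 to 60% of their autosomal bins replicated, which held 25 haploid and 46 diploid cells. Since the members were selected on these cells, their values in mid S phase describe the choice and were not tested, and the count in that comparison is its background of 3.17% by construction. Cells earlier and later in S phase, and the comparison of homologs, took no part in the choice. The opposite difference, 30 points or more in favour of haploid cells, was met by 937 bins, or 2.00% of the autosomal bins.

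The haploid cells are single nuclei of H129-2, a 129-strain mESC line with 1 chromosome set. The diploid cells are single nuclei of F121-9, a hybrid cas/129 mESC line whose homologs can be told apart by sequence variants. Both lines were grown in N2B27 medium with 2i and LIF, without feeder cells, and nuclei were sorted by DNA content. Of 188 labelled cells, 75 haploid and 63 diploid cells sorted from S phase had values that could be matched. The lines differ in ploidy, strain, plate and culture at once, and these cannot be told apart. The labels name no separate cultures and give each cell a well but no plate number, so cells are not replicates of a line and no test between lines was made. SD and exact (Clopper-Pearson) 95% intervals describe the cells that were sequenced, except for the interval of the share of members on chromosome 3, which counts bins. The intervals cover counting error only. Read numbers are not part of the values. Per the study's methods cells below a minimum of reads were discarded, and above that minimum the depth of each cell is unknown. There were 4 pairs of diploid cells whose states correlated above 0.8, and without 1 cell of each pair 1420 bins passed 30 points, 1374 of them members. Cell identity could not be checked against marker genes, since only DNA was measured.

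Replication timing is the order in which chromosome segments are copied during S phase. Neighbouring origins tend to fire together, so that a segment larger than most genes, a replication domain, is copied at about the same time. Gene-rich, open chromatin is generally copied early and gene-poor, compact chromatin late, and many domains shift between early and late during differentiation. In a single cell a domain that has replicated has a higher copy number than one that has not, and the binarized state of a bin is 1 for replicated and 0 for unreplicated, with the mean of both homologs taken in diploid cells.

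Promoters of 4 genes in the leading domains are shown because they span the range of CpG content found there. Each is the RefSeq window of 250 bases before and 50 bases after a transcription start, on build GRCm38.p6 and on the strand of the gene, with CpG dinucleotides in capitals. Trpc7, a cation channel gene, lies at chr13:56895740-56896039 on the minus strand and had the largest mid-S-phase line difference of these 4 genes. Col24a1, a collagen gene, lies at chr3:145292222-145292521 on the plus strand. Sumf1, which encodes the enzyme that activates sulfatases, lies at chr6:108185534-108185833 on the minus strand. Kcnk2, a potassium channel gene, lies at chr1:189343304-189343603 on the minus strand, and 1 of its 4 listed promoters within member bins is given.
Trpc7: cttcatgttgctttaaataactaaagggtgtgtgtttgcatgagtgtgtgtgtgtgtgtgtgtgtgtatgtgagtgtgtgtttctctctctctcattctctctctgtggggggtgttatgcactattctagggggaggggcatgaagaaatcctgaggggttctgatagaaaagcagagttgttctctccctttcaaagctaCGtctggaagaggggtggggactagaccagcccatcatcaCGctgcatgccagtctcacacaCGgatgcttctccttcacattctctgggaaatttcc
Col24a1: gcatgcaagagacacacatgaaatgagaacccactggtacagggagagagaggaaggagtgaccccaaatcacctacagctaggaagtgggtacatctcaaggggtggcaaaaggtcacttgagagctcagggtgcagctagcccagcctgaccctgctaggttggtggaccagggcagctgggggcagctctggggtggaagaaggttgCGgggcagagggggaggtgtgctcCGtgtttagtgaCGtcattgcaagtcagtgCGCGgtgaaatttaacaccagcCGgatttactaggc
Sumf1: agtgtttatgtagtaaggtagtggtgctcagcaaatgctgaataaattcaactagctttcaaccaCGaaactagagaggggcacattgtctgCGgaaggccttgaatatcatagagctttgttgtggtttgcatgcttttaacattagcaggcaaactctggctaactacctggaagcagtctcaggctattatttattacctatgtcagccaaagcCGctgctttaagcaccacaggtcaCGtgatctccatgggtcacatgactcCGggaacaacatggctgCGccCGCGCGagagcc
Kcnk2: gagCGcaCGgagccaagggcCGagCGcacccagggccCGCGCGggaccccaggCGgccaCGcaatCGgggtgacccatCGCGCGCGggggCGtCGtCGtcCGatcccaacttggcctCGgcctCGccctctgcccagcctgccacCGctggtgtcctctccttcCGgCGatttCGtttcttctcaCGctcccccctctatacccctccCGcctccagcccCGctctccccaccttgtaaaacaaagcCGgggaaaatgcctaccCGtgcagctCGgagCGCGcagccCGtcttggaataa
The ratio of observed to expected CpG was 0.179 for Trpc7, 0.270 for Col24a1, 0.536 for Sumf1 and 0.978 for Kcnk2. Member bins therefore held both CpG-poor and CpG-rich promoters. Over the 733 RefSeq promoters within member bins, 28.9% had a ratio of 0.6 or more. The share was 27.2% for the 2455 promoters in other bins within the members' interquartile range of the replication order. Over all 30320 autosomal promoters it was 37.3%. The letters TATAAA, searched on both strands, were present in 16.1% of member promoters, 15.6% of those in other bins of that range and 13.4% of all.

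The order in which the genome replicated was measured as the percentile of a bin in the mean smoothed score over cells, from 0 for the earliest to 100 for the latest bin, and was available for 1432 of the 1484 members. In cells outside mid S phase the median member stood at 53.4, with an interquartile range of 44.8 to 61.4, and 41 members lay in the earliest 25% of the order and 37 in the latest 25%. Bins with the opposite difference had a median of 54.9 in the same cells, with 34 bins in the earliest and 14 in the latest 25%. Over all cells, those used to choose the bins included, the members had a median of 51.7, an interquartile range of 44.8 to 57.9, and 9 bins in the earliest and 15 in the latest 25%. A bin copied in nearly all or nearly none of the mid-S-phase cells of both lines could not have met the rule in either direction, and the middle position is a property of the choice. In mid S phase, where the rule was applied, members had replicated in a mean of 31.1% of haploid and 72.2% of diploid cells, with an interquartile range over bins of 20 to 44% and 60.6 to 84.8%. The median difference was 38.3 points and the largest 80.7 points. At the threshold itself, 8 bins stood at 30 points exactly, 12 at 30.2 and 9 at 30.3, while just outside it 5 bins stood at 29.96, 13 at 29.91 and 9 at 29.87. The tail was longer towards diploid cells, with 274 bins beyond 50 points and 17 beyond 70 points, against 47 and 0 in the other direction.

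The cells before and after mid S phase showed how the same bins behaved where they had not been chosen. Among the 11 haploid cells below 40% replicated, a cell had copied 9.13% ± 3.38 (SD) of the member bins, from 4.99% in the lowest cell through a median of 7.55% to 15.4% in the highest. These cells had copied a mean of 31.5% of all autosomal bins, so members stood at -22.4 points relative to the genome and were behind it in 11 of 11 cells. Only 4 diploid cells lay below 40% replicated. With 18.2%, 20.3%, 38.4% and 39.5% of the genome copied, they had copied 15.3%, 26.1%, 36.2% and 30.1% of the members. Relative to the genome these cells stood at -2.90, 5.84, -2.16 and -9.34 points, so that members were ahead in 1 of 4. Per bin, 957 members had replicated in a larger share of early diploid than of early haploid cells, or 64.5% of members, while 30.4% of all autosomal bins did so.

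**Figure D1:**
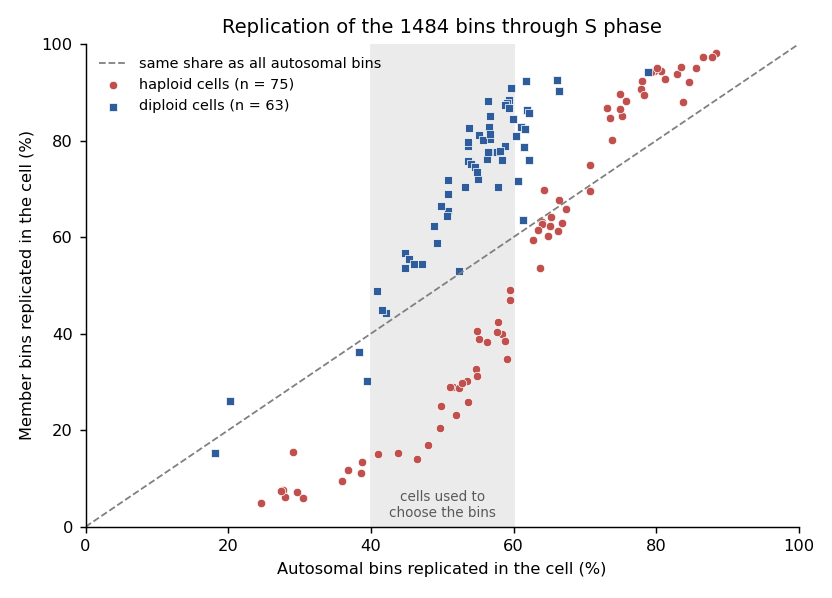
Percentage of the 1484 member bins replicated in each cell (vertical axis) against the percentage of all autosomal bins replicated in that cell (horizontal axis). Each point is 1 cell, red circles are 75 haploid and blue squares 63 diploid cells, the dashed line marks equal shares, and the shaded range holds the cells used to choose the bins. Early haploid cells lie below the line and haploid cells above 80% replicated lie above it, while diploid cells above 60% lie above it throughout.

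Members passed from behind to ahead of the genome within the haploid line, and did so later than in the diploid line. Haploid cells with 40 to 50% of the genome copied had replicated 17.8% ± 4.20 (SD, n = 6) of the members, and those with 50 to 60% had replicated 35.2% ± 7.14 (n = 19). The value was 62.7% ± 3.85 (n = 14) at 60 to 70%, 86.2% ± 7.13 (n = 14) at 70 to 80% and 94.4% ± 2.85 (n = 11) above 80%. In the cells that the rule did not use, the members stood at -22.4 points relative to the genome below 40%, -2.17 points at 60 to 70% and 10.7 points at 70 to 80%. The lower value of -28.6 points at 40 to 50% belongs to cells in which haploid members had to be low. Diploid cells had replicated 54.5% ± 6.76 (n = 11) of the members at 40 to 50% and 77.8% ± 7.88 (n = 35) at 50 to 60%. At 60 to 70% the diploid value was 81.9% ± 8.59 (n = 12), and members stood 19.7 points ahead of the genome, so that the haploid cells of that range had not reached the diploid level. The single diploid cell at 70 to 80% was 15.5 points ahead. No diploid cell lay above 80%, and the last steps of the diploid line could not be described.

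The line difference was also present in late S phase, at cells that the rule did not use. In cells from 60 to 70% replicated, the 14 haploid cells had copied from 53.5% of the members through a median of 62.8% to 69.8%, and the 12 diploid cells from 63.6% through a median of 82.6% to 92.6%. The ranges overlapped, although the haploid cells were further along, with a mean of 64.9% of the genome against 62.2%. Members were ahead of the genome in 12 of 12 diploid and 2 of 14 haploid cells. Over the wider window from 60 to 80%, a haploid cell had copied 74.4% ± 13.2 (SD, n = 28) and a diploid cell 82.9% ± 8.91 (n = 13) of the members. That window compares unequal parts of S phase, since its haploid cells had copied a mean of 70.2% of the genome and its diploid cells 63.5%.

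Bin by bin, 1167 of the 1484 members (78.6%) had replicated in a larger share of diploid than of haploid cells between 60 and 70%, against 25.2% of all autosomal bins, and 456 (30.7%) did so by 30 points or more, against 2.94% of all bins. Of the 937 bins with the opposite mid-S-phase difference, 45 were above 0 and 5 reached 30 points. The median difference was 17.9 points for members, 0 for all bins and -26.2 points for the opposite bins. Over the window from 60 to 80%, 1027 members (69.2%) had a difference above 0, against 21% of all bins and 16 of the opposite bins. The median difference in that window was 7.14 points for members and -3.57 points for all bins. When lines were compared within intervals of 5 points of progress and then averaged, the median was 13.4 points for members and 0 for all bins. In that comparison the difference was above 0 for 1238 members (83.4%), against 34.8% of all bins, and 30 points or more for 341 members (22.98%), against 5.72% of all bins. Of the opposite bins, 103 were above 0 and 0 reached 30 points. The intervals held 8 haploid and 10 diploid cells at 60 to 65%, 6 and 2 at 65 to 70%, and 7 and 1 at 75 to 80%. The last interval rests on a single diploid cell but carries the same weight as the others, and domains and genes are therefore compared below in the cells from 60 to 70%, 14 haploid and 12 diploid. Neighbouring bins are not independent, because the scores were smoothed over 15 windows (750 kb) and the segments were at least 5 windows (250 kb) long.

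The smoothed scores of the same late cells, which are relative copy levels within a cell and had not been cut into states, moved in the same direction. The median member was higher by 0.18 score units in diploid than in haploid late cells, against -0.02 for all bins. A cell's mean score over the members was -0.03 ± 0.13 (SD, n = 28) in haploid and 0.17 ± 0.11 (n = 13) in diploid late cells.

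Each line's own order gave a comparison of ranks rather than of totals. Using only cells outside mid S phase, the median member stood at percentile 57 in haploid cells, with an interquartile range of 48.3 to 64.7, and at 42.2 in diploid cells, with a range of 29.5 to 53.1. The haploid percentile was the later one for 1312 of 1432 members (91.6%), against 50.0% of all 45113 bins with scores, and the median shift was 14.1 percentiles. For the bins with the opposite difference the median shift was -11.3 percentiles. In diploid cells 286 members fell within the earliest 25% of the order, and in haploid cells 31 did. The diploid order rests on 17 cells, 4 early and 13 late, and the haploid order on 11 early cells, 28 late cells and 11 above 80% replicated. The orders thus come from unlike parts of S phase, and the part of this in the shift was not tested. In 3 of the 4 early diploid cells the members were behind the genome.

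**Figure D2:**
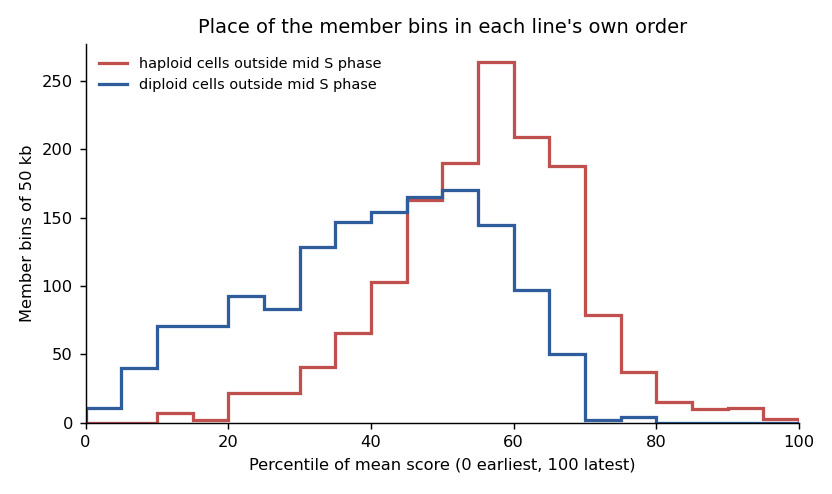
Number of member bins (vertical axis) in each 5-percentile class of the replication order (horizontal axis, 0 earliest and 100 latest), taken separately from haploid (red) and diploid (blue) cells outside mid S phase. The haploid distribution is centred at 57 and the diploid distribution, which is broader and reaches the earliest classes, at 42.2.

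Member bins formed 200 domains when bins whose starts lay up to 150 kb apart were joined. Among them 45 were single bins, 99 had fewer than 5 bins, and the median domain had 5 bins or 250 kb. The 60 domains of 10 or more bins held 1014 members, or 68.3%. Averaged over these 60 domains, the share of mid-S-phase cells that had replicated the centre was 28.7% in haploid and 75.6% in diploid cells, and at 1 Mb before the centre it was 55.7% and 65%. In these cells, on which the bins were selected, the centres were a trough between earlier flanks in the haploid line and a peak in the diploid line. In late haploid cells no trough was left. The profile sloped from 77.7% at 1 Mb before the centre through 72.6% at the centre to 71.6% at 1 Mb after it. The peak was still seen in late diploid cells, with 76.7%, 84.9% and 73.8% at these points. In early haploid cells the centre stood at 10% and the point 1 Mb before it at 27.6%, while the 4 early diploid cells gave 23.5% and 36%. The early diploid profile thus had a trough as well.

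**Figure D3:**
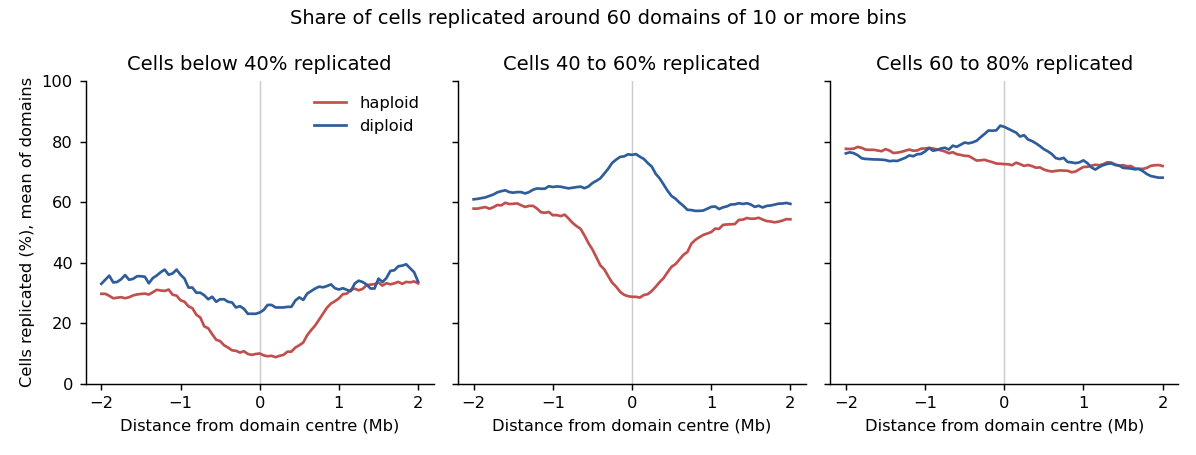
Mean percentage of cells replicated (vertical axis) by distance from the centre of the 60 domains with 10 or more member bins (horizontal axis, Mb), in cells below 40%, at 40 to 60% and at 60 to 80% replicated, with haploid cells in red and diploid cells in blue. The middle panel holds the cells used to choose the bins, where the haploid trough of 28.7% faces the diploid peak of 75.6%. In late cells the diploid peak is 84.9% and the haploid centre 72.6%.

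In cells from 60 to 70% replicated, 55 of the 60 domains had a difference above 0, and 23 had 30 points or more. The median was 23.6 points and the range ran from -25.4 to 56.5. Compared within 5-point intervals up to 80%, 55 were also above 0 and 12 had 30 points or more. The late smoothed score was higher in diploid cells in 53 of the 60 domains. The 12 domains with the most member bins held 366 members, or 24.7%, and 11 of the 12 had a difference above 0 between 60 and 70%.

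The largest domain covered 60 bins at the start of the assembled part of chromosome 18, from 2950001 to 5950000. It holds Svil, which encodes the actin-binding protein supervillin, Zeb1, a transcriptional repressor known for epithelial to mesenchymal transition, Zfp438, a zinc finger gene, Crem, a cyclic AMP-responsive transcription factor gene, and Cul2, a ubiquitin ligase scaffold gene. In mid S phase a haploid cell had copied from 0% through a median of 25% to 100% of the domain, and a diploid cell from 28.3% through a median of 91.7% to 100%. The whole domain was complete in 22 of 46 diploid and 1 of 25 haploid mid-S-phase cells. Between 60 and 70% replicated it was complete in 11 of 12 diploid and 1 of 14 haploid cells, with means of 96.3% and 67.9% of its bins. Svil had the largest mid-S-phase difference of these genes, 32.8% against 97.8% of cells, and Zeb1 had 26.4% against 80%. Above 80% replicated the domain was complete in 9 of 11 haploid cells.

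On chromosome 3, 40 bins from 144950001 to 147000000 held Col24a1, Ddah1, which encodes an enzyme that degrades inhibitors of nitric oxide synthesis, Ttll7, a tubulin-modifying enzyme gene, Prkacb, a catalytic subunit gene of protein kinase A, and Wdr63. The mid-S-phase means were 33.5% of the domain in haploid and 79.6% in diploid cells. The domain was not uniform. Ttll7 at its end had replicated in 0% of haploid and 41.3% of diploid mid-S-phase cells, and Wdr63 in 56% and 96.7%. Between 60 and 70% replicated, 23.8% of haploid and 58.3% of diploid cells had replicated Ttll7, and 59.5% and 91.7% had replicated Wdr63. Within 5-point intervals up to 80% the difference at Ttll7 was -12.4 points. The 4 early diploid cells had copied 0% of this domain with a mean of 29.1% of the genome, and the 11 early haploid cells 6.82% of it with 31.5% of the genome.

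A domain of 37 bins on chromosome 4, from 8000001 to 9850000, held Asph, which encodes an aspartyl hydroxylase, Clvs1, Chd7, a chromatin remodeller gene, Car8, a carbonic anhydrase-related gene, and Rab2a, a small GTPase gene of membrane traffic. Its mid-S-phase means were 21.4% and 60.8%. Asph and Clvs1 each had 4% of haploid mid-S-phase cells replicated, against 41.3% and 39.6% of diploid cells. At 60 to 70% of the genome copied, the difference was 61.9 points at Asph, 53.6 at Clvs1 and 39.3 at Car8. It was 5.24 points at Chd7 and 5.95 at Rab2a, and within 5-point intervals up to 80% these last genes were at -6.56 and -5.37 points. The late difference of this domain thus lay at its ends rather than around Chd7 and Rab2a.

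On chromosome 1, 29 bins from 189050001 to 190550000 held Kcnk2, the promoter of which is shown above, Ptpn14, a tyrosine phosphatase gene, Cenpf, a kinetochore protein gene, Smyd2, a lysine methyltransferase gene, and Prox1, a homeobox transcription factor gene of lymphatic and neural development. A haploid mid-S-phase cell had copied a median of 41.4% of the domain and a diploid cell a median of 100%, with 0% and 20.7% in the lowest cells and 100% in the highest of both lines. Between 60 and 70% replicated the domain was complete in 11 of 12 diploid and 4 of 14 haploid cells, and 2 of those haploid cells had copied none of it. The domain mean was 46.6% in these haploid and 96.6% in these diploid cells, and the difference ranged from 48.8 points at Kcnk2 to 57.1 points at Ptpn14 and Smyd2.

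A domain of 25 bins on chromosome 6, from 106900001 to 108200000, replicated latest of the 12 in haploid cells, at a mean percentile of 79.1 over all haploid cells, and stood at 55.1 over all diploid cells, mid S phase included. It holds Sumf1, Lrrn1, which encodes a leucine-rich repeat membrane protein, and Setmar, which lies in a gap between its members. Lrrn1 had replicated in 0% of haploid and 39.1% of diploid mid-S-phase cells. In late cells more than 50% of the domain was copied in 4 of 28 haploid cells (14.3%, interval 4.03 to 32.7%) and 6 of 13 diploid cells (46.2%, interval 19.2 to 74.9%). In cells from 60 to 70% replicated, the domain means were 21.1% and 52%, and 7.14% of haploid and 41.7% of diploid cells had replicated Lrrn1. Within 5-point intervals up to 80% the domain difference was 54.2 points. Among haploid cells above 80% replicated, 10 of 11 had copied more than 50% of it.

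A further domain on chromosome 6, with 29 bins from 4500001 to 6050000, held Dync1i1, a dynein subunit gene, Ppp1r9a, a neuronal actin-binding protein gene, Sgce, which encodes epsilon-sarcoglycan, Asb4 and Casd1. Its mid-S-phase means were 48% and 88.04%, and by late S phase it was largely copied in both lines, at 92.1% and 98.4%. The domain on chromosome 13, from 56450001 to 57750000 with 26 bins, held Spock1, a proteoglycan gene, Trpc7, Smad5, a signal transducer of bone morphogenetic proteins, Tgfbi, an extracellular matrix gene, and Slc25a48. Trpc7 had replicated in 24% of haploid and 97.1% of diploid mid-S-phase cells, a difference of 73.1 points, and Smad5 in 32% and 98.9%. Between 60 and 70% replicated, the domain means were 79.1% and 90.1%, a difference of 10.9 points.

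Alk, a receptor tyrosine kinase gene, lay with Lclat1, a lysophospholipid acyltransferase gene, Capn13, a calpain gene, Lbh and Ypel5 in 26 bins on chromosome 17, from 72150001 to 73450000. The domain had been copied to 20.9% in haploid and 71.5% in diploid mid-S-phase cells, and to 53.6% and 89.7% in cells from 60 to 70% replicated. The second domain on chromosome 17, with 22 bins from 49600001 to 50700000, held Kif6, a kinesin gene, Rftn1, Plcl2 and Dazl, an RNA-binding protein gene of germ cells. Its mid-S-phase means were 14.4% and 60.4% and between 60 and 70% replicated they were 37.01% and 75%, with differences of 31 to 39.1 points at these 4 genes. The domain means thus differed by 36.2 points in the first and 37.99 points in the second domain of this chromosome, while at Alk itself the difference was 28.9 points.

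On chromosome 10, 23 bins from 13600001 to 14750000 held Aig1, Hivep2, a zinc finger transcription factor gene, Adgrg6, an adhesion G protein-coupled receptor gene required for myelination by Schwann cells, Vta1 and Nmbr, a neuromedin receptor gene. At 60 to 70% of the genome copied, the domain means were 68.01% and 98.2%, and the difference ran from 20.2 points at Aig1 to 40 points at Hivep2. Within 5-point intervals up to 80% it was 7.55 points over the domain and -13.9 points at Adgrg6. The 22 bins on chromosome 18 from 62100001 to 63200000, with Piezo2, a mechanically gated channel gene, Htr4, a serotonin receptor gene, Spink13, Spink10 and Fbxo38, had 35.1% and 91.6% in mid S phase and a difference of 14.1 points between 60 and 70%. The 27 bins on chromosome 14 from 17550001 to 18900000, with Thrb, a thyroid hormone receptor gene, Ube2e2 and Ube2e1, ubiquitin-conjugating enzyme genes, Nr1d2, a circadian nuclear receptor gene, and Nkiras1, had 26.8% and 70.05% in mid S phase. In cells from 60 to 70% replicated, haploid cells had copied 77.5% and diploid cells 67.9% of that domain, a difference of -9.61 points, and over the window to 80% the means were 81.5% and 70.4%. Its mid-S-phase difference was thus not seen in the later states, and within 5-point intervals up to 80% it was -3.25 points. The late smoothed score of the domain was higher by 0.07 units in diploid cells. The lowest of the 60 domains was a stretch of 10 bins with Bcl2, a regulator of cell death, on chromosome 1 between 106400001 and 106900000, at 72.9% in haploid and 47.5% in diploid cells from 60 to 70% replicated. It was named after its values were seen.

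**Figure D4:**
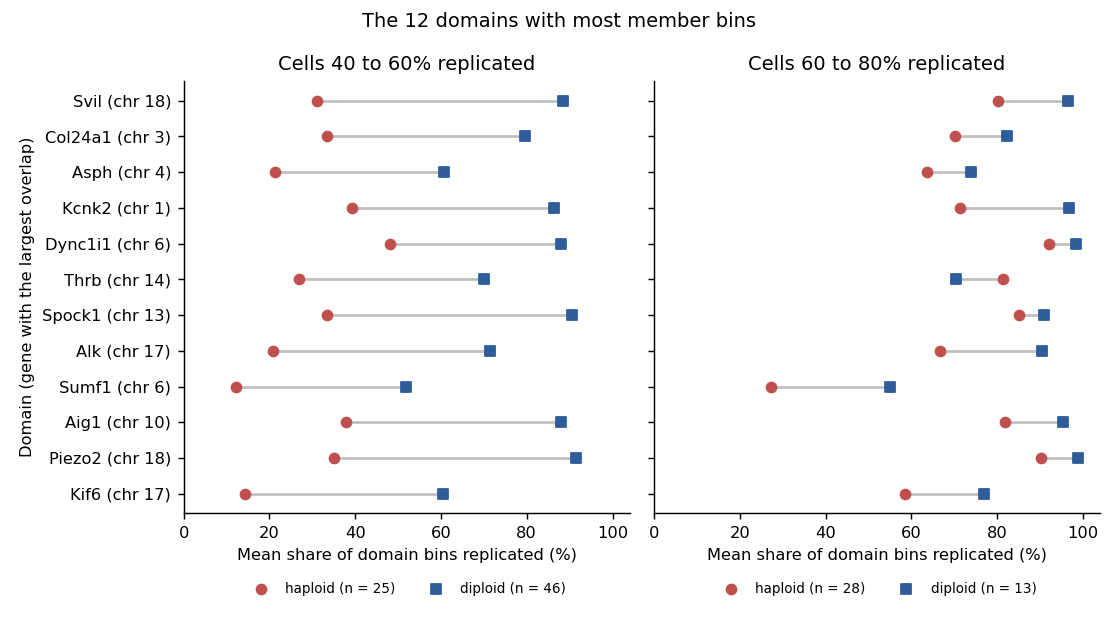
Mean percentage of the bins of each of the 12 largest domains replicated (horizontal axis) in haploid (red circles) and diploid (blue squares) cells, with cells used to choose the bins on the left (25 haploid, 46 diploid) and late cells on the right (28 haploid, 13 diploid). In late cells the diploid mean is the higher one in 11 of 12 domains, and the Thrb domain, with 81.5% in haploid and 70.4% in diploid cells, is the exception.

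The largest difference among the 60 domains between 60 and 70% replicated, 56.5 points, belonged to 18 bins on chromosome 12 from 113550001 to 114450000, which cover part of the immunoglobulin heavy chain variable region and no gene annotated as protein-coding. It was singled out after its values were seen. The variable gene segments are joined by recombination in B cells and are not in use in stem cells. Below 40% replicated, 10 of 11 haploid cells had copied none of it, and the 4 diploid cells had copied from 27.8 to 100% of it. In mid S phase haploid cells ranged from 0% through a median of 27.8% to 100%, and diploid cells from 0% through 83.3% to 100%. In late cells more than 50% of the domain was copied in 4 of 28 haploid cells (14.3%, interval 4.03 to 32.7%) and in 10 of 13 diploid cells (76.9%, interval 46.2 to 94.96%). Even above 80% replicated, only 3 of 11 haploid cells had copied more than 50% of it, with a mean of 33.8% of its bins. The haploid mean did not rise steadily through S phase. It was 25.6% in mid S phase, 13.9% from 60 to 70% replicated and 18.8% from 60 to 80%. Diploid means in these windows were 76.6%, 70.4% and 72.6%. The reason was not tested. All 47 immunoglobulin variable genes that overlapped a member bin lay here, of 241 immunoglobulin and T cell receptor variable genes with bins (19.5%), against 2.65% of all protein-coding genes. Between 60 and 70% replicated, the differences at these genes ran from 33.3 to 69.05 points. The gene copies here are similar to each other, and values at such families are uncertain.

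Other domains with large late differences, also singled out after their values were seen, held Rbfox1, a neuronal splicing factor gene on chromosome 16 (55.98 points), and Lama2, Arhgap18 and L3mbtl3 on chromosome 10 (51.1 points). At the Rbfox1 domain, 19 bins from 7000001 to 7950000, 18 of 25 haploid and 14 of 46 diploid mid-S-phase cells had copied none of the bins. Late cells had copied 37.4% of it in haploid and 81.6% in diploid cells. By contrast, of all 1484 members, 973 (65.6%) had replicated in 11 of 11 haploid cells above 80%, against 55.2% of all autosomal bins, and 18 had replicated in fewer than 50% of them. Besides the immunoglobulin domain, only 1 domain was below 50% in these cells, which had 5 bins on chromosome 1 between 114000001 and 114250000 and a mean of 18.2%.

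Members were spread unevenly over chromosomes. Chromosome 3 held 235 members, 7.59% of its bins and 15.8% of the set, followed by chromosome 1 with 206, chromosome 6 with 180, chromosome 18 with 128 and chromosome 14 with 123. Chromosome 11 held 0 members among its 2376 bins and 138 bins of the opposite kind. The mean mid-S-phase difference over all bins of a chromosome ran from 8.05 points on chromosome 3 to -8.73 points on chromosome 11. It did not follow the members everywhere, since chromosome 17 had 3.66% members and a mean of -2.98 points, and chromosome 4 had 87 members, 51 opposite bins and a mean of -0.61 points. With the mean difference of each chromosome subtracted, 1243 bins passed 30 points, and 1138 of them were members. Chromosome 3 then held 111, or 8.93% of the set, chromosome 6 led with 129, and chromosome 11 had 3.

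**Figure D5:**
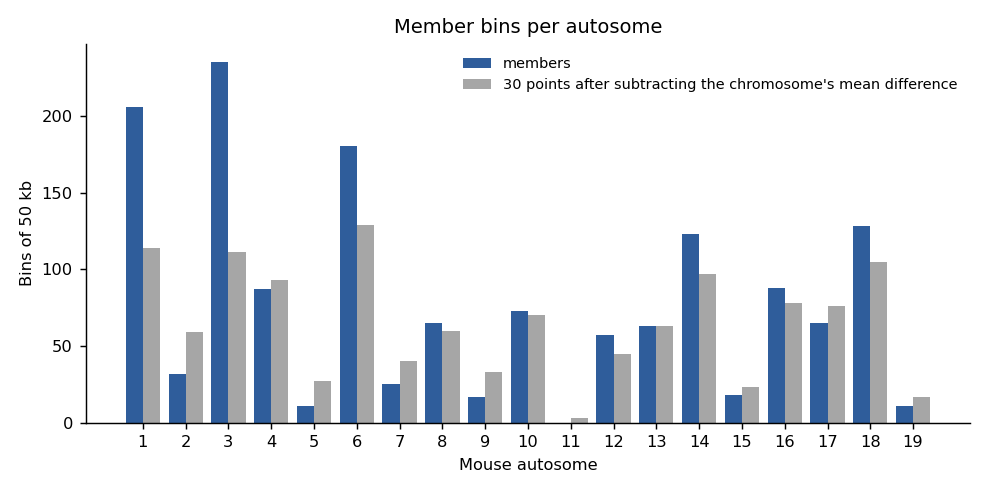
Number of member bins on each mouse autosome (blue bars) and of bins that pass 30 points after the mean line difference of the chromosome is subtracted (grey bars). The blue bar of chromosome 3 falls from 235 to a grey bar of 111, and chromosome 11 has 0 and 3.

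The median GC content of members was 42.1%, against 41.4% in all bins and 40.3% in bins with the opposite difference. In 4729 other bins of the same place in the order it was 41.6%. That place was percentiles 44.8 to 57.9, the interquartile range of the members, and 716 of the members lay in it. These 716 had a median of 42.1%. When all bins were split by GC content into 10 classes of equal size, members made up 0.150% of the lowest class, 6.44% of the sixth and 0.727% of the highest. The opposite bins were few in the outer classes too, with 36 in the lowest and 4 in the highest class, and most numerous in the fourth with 191. Over all bins the Pearson correlation of GC content with the mid-S-phase difference was 0.03. It was 0.13 over 6212 bins, which were the other bins of that place and all members, in that place or not. That set was chosen in part by the difference itself, so 0.13 is not a value for bins matched in the order. Both describe bins that share cells and amplification. With the mean difference of each GC class subtracted, 1404 bins passed 30 points, of which 1370 were members. Members held 5.88 transcription starts per Mb, other bins of that place 6.19 and all bins 8.58. The 716 members of that place held 6.06. A gene overlapped 58.8% of all members, 60.3% of the 716 members of that place and 58.3% of the other bins there. The order changed less steeply with position in members than in those other bins, by a median of 0.26 against 0.37 score units over 500 kb. The median was 0.31 in bins with the opposite difference and 0.17 in all bins, so that members were steeper than the genome. The mean score used for this includes the mid-S-phase cells. Members within 5 Mb of a chromosome's start were 4.31% of the set, against 1.49% of all bins, but 41 of these members belonged to the largest domain on chromosome 18, and without that domain the share was 1.62%.

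Gene lists gave few members. Of 20043 protein-coding genes with bins, 531 (2.65%) overlapped a member bin. Among 22 pluripotency genes, 27 replication factor genes and 113 keratin genes, 0 did so. Of 22 lineage regulators 1 did, Zeb1, and of 92 potassium channel genes 4 did, which were Kcnk2, Kcnmb2, Kcnma1 and Kcnq5. Of 1114 olfactory receptor genes 6 overlapped members, of 225 vomeronasal receptor genes 3, of 358 zinc finger genes 2 and of 89 cadherin and protocadherin genes 1. Genes of 1 cluster share bins and are not independent. Kcnk2 had replicated in 38.4% of haploid and 78.7% of diploid mid-S-phase cells, and in 42.9% and 91.7% of cells from 60 to 70% replicated. The difference in these later cells was 8.84 points at Kcnmb2, of whose 7 bins 4 were members, 17.6 points at Kcnma1 with 1 member of 16 bins, and 6.50 points at Kcnq5 with 3 of 13. The single cadherin, Cdh26, had a difference of -2.08 points.

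Within diploid cells the homologs of member bins had the same state almost everywhere. In a diploid cell 0.562% ± 1.22 (SD, n = 63) of members were replicated on the 129 homolog alone and 0.596% ± 1.18 on the Castaneus homolog alone. The difference, 129-only minus Castaneus-only, was -0.034 points ± 0.841, with the 129 share higher in 17 cells, the Castaneus share higher in 17 and both equal in 29. For all autosomal bins the difference was 0.198 ± 0.406 points, with the 129 share higher in 39 cells and the Castaneus share in 5. In other bins within the members' interquartile range of the order it was 0.268 ± 0.527 points. The excess of 129-only states over the genome was thus not seen at the members. The SD over cells exceeds either value, and the difference between sets was not tested. The authors gave homologs different states only where enough parsed reads and a score beyond the range of control cells allowed it, so equal states are the default and these shares are low by construction. Per the study's methods, the limit of that score was less strict for the 129 than for the Castaneus homolog. Its part in the excess of 129-only states was not tested. The member domain with the most cells in which the Castaneus homolog alone was replicated lay on chromosome 13, from 69950001 to 70600000, with 13 bins and Ice1, a gene of small nuclear RNA transcription. There the Castaneus homolog was ahead in 4 cells and the 129 homolog in 0. This domain was picked for that count, and the reverse also occurred. In 12 member bins on chromosome 9, from 24750001 to 25350000, the 129 homolog was ahead in 3 cells and the Castaneus homolog in 0. In single member bins the 129 homolog alone was replicated in up to 5 cells, and the Castaneus homolog alone in up to 4.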

How the data were processed

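Per the labels, single nuclei were sorted by DNA content, amplified with SeqPlex and sequenced in 50 bp single-end reads. Per the study's methods and the submitters' processing notes, the authors mapped reads to mm10 with Bowtie2, removed duplicates with SAMtools, counted reads in 50 kb windows, divided them by average coverage in G1 and G2 controls, then centred, scaled and median smoothed each cell over 15 windows. The labelled control cells, 6 in number, are haploid. The deposited smoothed values are a score without a unit, relative within a cell. The authors segmented each profile (at least 5 windows) and the deposited binarized values are states with no other scale, 0 or 1 per bin and homolog. Another 24 columns, which hold 8 diploid cells that fitted the name of no labelled cell, were left out. Columns named dip_G1 and dip_G2 were read as wells, although these names could stand for cell cycle phases. Labelled cells without matched values were not analysed here.

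The authors also rescaled aneuploid chromosomes. Bins had a state in each of 138 cells. Percentages of cells, differences, percentiles and SD were computed in Python 3.11.15 with pandas 2.3.3, numpy 2.4.6 and scipy 1.17.1. A bin at a table position begins 1 base after it, and no bin passed the end of its chromosome in GRCm38. Genes were from GENCODE vM21, promoters from RefSeq. GC content could be computed for all but 5 bins. The named domains were the 12 with most members. In each, up to 5 protein-coding genes were named by overlap with the domain, gaps between members included. Listed genes that overlap a member were added. The members, gene lists and comparisons were chosen with earlier results of these data known. The code for line differences was tested on simulated data. Alternatives changed thresholds, windows, joining distance, states, chromosome and GC adjustment, cells and plate rows.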

Additional observations from a re-analysis of the deposited data

Results flagged for a closer look

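The rule covered autosomes only, and the X chromosome, which no comparison above used, held the same kind of bin. It had 2845 bins with a state. Of these, 301 (10.6%) had replicated in a larger share of diploid than of haploid mid-S-phase cells by 30 points or more. In the opposite direction 0 bins did so. The mean share of cells replicated over the X chromosome was 36.5% in haploid and 47.1% in diploid cells, a mean difference of 10.6 points, which was larger than on any of the 19 autosomes. Mid S phase was set by the autosomes alone, and their mean difference over all bins was 0.035 points. The X chromosome, like each autosome, is present once in a haploid cell. In the diploid line, per the study's text, loss of an X chromosome was the most frequent karyotype change, and the authors rescaled aneuploid chromosomes. Their part in the difference was not tested.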

How the results depend on the processing

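Among 33 alternatives to 7 results, 27 left the value within its limit. The limit was 1.5 times for counts and 1 SD over cells for the other values except the share on chromosome 3. For that share it was the exact interval over bins, 14.01 to 17.8%. That interval treats neighbouring bins as independent, which they are not, and is too narrow. For the late line difference the limit was 8.91 points, the SD over late diploid cells, and exceeded the value of 7.14 points itself. For the difference between homologs the limit was 0.841 points against a value of -0.034. Staying within such wide limits says little about how stable these results are. The number of members was 3327 at 20 points, 640 at 40 points and 943 with a smoothed score above 0 as the state (753 of them members). With cells from 45 to 55% replicated 1839 bins passed, but 1082 of the 1484 members were among them (72.9%), and with 5-point intervals 1120 (75.5%), so part of the set depends on which mid-S-phase cells are compared. The late line difference of 7.14 points was 17.9 points in cells from 60 to 70% replicated, and it ran from 2.56 points in all cells above 60% to 13.6 points in plate rows A to D among the others. Plate rows E to H gave 3.36 points, where haploid cells had copied 71.02% and diploid cells 62.1% of the genome. The share of members on chromosome 3 fell from 15.8% to 8.93% with chromosome means subtracted. The difference of 129-only and Castaneus-only shares reversed from -0.034 to 0.012 points in mid-S-phase cells, far within the SD over cells of 0.841. Without the diploid cells of the columns G1 and G2, 1490 bins passed, 1450 of them members, and the late difference was again 7.14 points. GC, similar-cell, column and plate alternatives were chosen after seeing the data. No paired analysis was possible because a well number names a cell and links none across lines. The few early diploid cells (4) and the absence of diploid cells above 80% limit what the diploid line shows at the ends of S phase.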
